A study of Drosophila melanogaster with 12 samples.

Results

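CtBP (C-terminal Binding Protein, CG7583) was followed through all of its probes, found by gene symbol or CG number in the annotation of a 2-colour cDNA array. The array held 2 CtBP probes, each printed as 2 adjacent spots, so that this 1 of 6793 named genes had 4 of 27648 spots and 2 of 13824 features. A feature is a probe's value averaged over its pair of spots. The probes are called probe 1 (spots 16343 and 16344) and probe 2 (spots 26587 and 26588), and they are given apart throughout. The annotation used here gave no sequence for either, so which part of the transcript each detects was not analysed here.

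CtBP is a transcriptional corepressor. It is brought to genes by DNA-binding repressors that carry a short peptide motif, and it in turn holds enzymes that modify histones. In the fly it is best known from the embryo, where repressors such as Krüppel and Knirps act through it, and it takes part in the transcriptional output of Wnt signalling.

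RNA came from pooled whole heads of unmated Oregon-R wild type males, 3 to 4 days old at the start. Flies were given pentylenetetrazole (PTZ, a GABA antagonist and convulsant drug) in their food at 8 mg/ml, with 30 flies per vial. The study saw no seizure-like behaviour in flies at this dose. PTZ flies were compared with flies kept on normal food (NF), and each array carried both RNAs, 1 in each dye. PTZ was given for 12 hrs, until the 2nd day or until the 7th day, with 4 replicate arrays per time and 12 in all. Replicates 1 and 2 carried PTZ RNA in Cy5 and NF RNA in Cy3 (forward arrays), and replicates 3 and 4 had the dyes swapped. The 0 hr arrays were not analysed here.

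The values are log2 ratios, and on the forward arrays they read PTZ over NF. For the swapped arrays, the sources used here do not say whether the ratios had been turned to PTZ over NF before deposit. The main reading therefore turned their sign, and the deposited sign is given beside it. The forward arrays are free of this choice, but on them a dye effect and an effect of PTZ cannot be told apart. Treatment or dye is given inconsistently in the labels of 3 arrays (2nd day replicate 2, and the swapped pair of 12 hrs), whose orientation follows their titles, the protocol and the methods. An array had values for 4728 to 6037 features at 12 hrs, for 5339 to 6338 on the 2nd day, and for 3088 to 9051 at the last time. The median over features was between -0.20 and 0.16 on 11 arrays and -0.64 on the other, replicate 4 of the 7th day. Markers of neurons, photoreceptors and glia were among the measured features, with nSyb on 11 arrays, inaD on 12, Arr1 on 11 and Gs2 on 12. RNA was taken from whole heads, so that fewer cells expressing a gene and less RNA per cell cannot be told apart.

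CtBP had negative log2 ratios on every forward array on which it was measured, with both probes. Probe 2 was measured on 5 forward arrays, where its lowest value was -0.68 and its highest -0.20 (mean -0.40 ± 0.22, SD, n = 5, a ratio of PTZ over NF of 0.756). Probe 1 was measured on 4 forward arrays and lay between -0.36 and -0.23 (mean -0.31 ± 0.06, SD, n = 4, a ratio of 0.807). Of 3294 features with at least 5 forward values, 9.9% were negative on every forward array with a value. Probe 2 is in this set, but probe 1, with 4 forward values, is not. On the swapped arrays the sign was mixed. As deposited, probe 2 was negative on 2 of 6 swapped arrays (mean -0.02 ± 0.34, SD, n = 6), and probe 1 on 2 of 5 (mean 0.03 ± 0.30, SD, n = 5). Over all arrays the deposited ratios of the probe means ranged between 0.626 and 1.36.

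**Figure D1:**
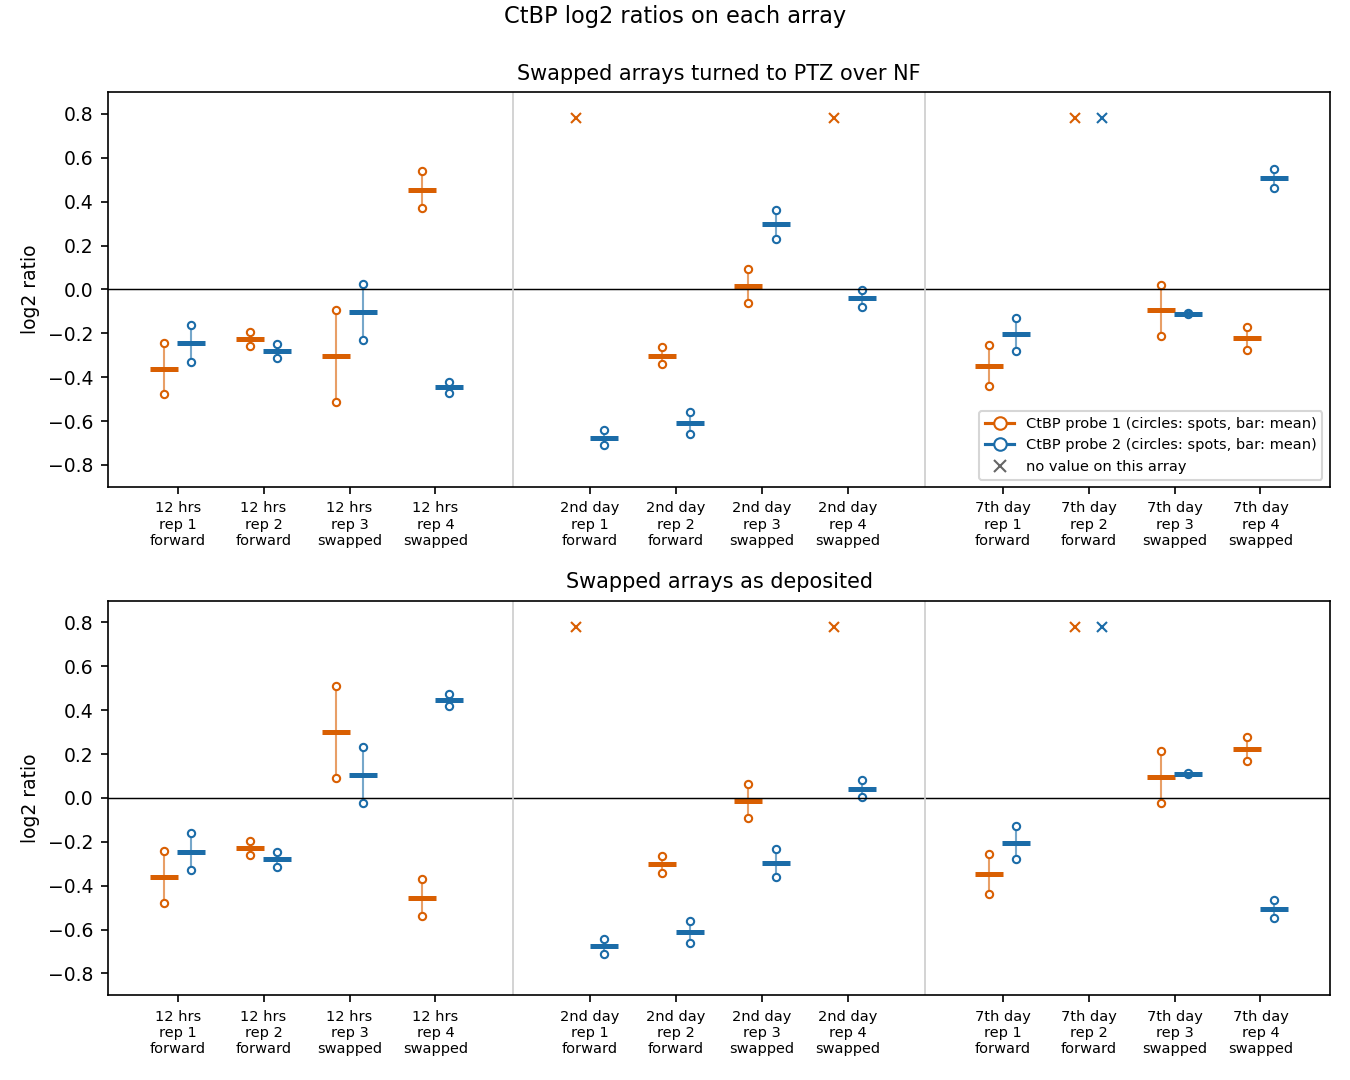
Log2 ratio (vertical axis) of each CtBP spot (circles) and the mean of each probe (bars) on each of the 12 arrays, in time order; the upper panel has the swapped arrays turned to PTZ over NF, the lower panel as deposited. All forward values lie below 0 for both probes, between -0.68 and -0.20 as probe means, whereas the swapped arrays lie on both sides of 0 in either panel.

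At 12 hrs both probes had a value on all 4 arrays. Probe 2 had log2 ratios of -0.25 and -0.28 on forward replicates 1 and 2, and 0.10 and 0.45 on swapped replicates 3 and 4 as deposited. With the swapped arrays turned, all 4 values were negative, between -0.45 and -0.10, and 5.95% of the features with 4 values were negative on all 4 arrays in that reading. The mean was -0.27 ± 0.14 (SD, n = 4), a ratio of PTZ over NF of 0.830. It did not pass the threshold of an adjusted p of 0.05 (limma, Benjamini-Hochberg adjusted p = 0.292, unadjusted p = 0.0205, 2-sided). In the turned reading 0% of 4642 features passed by limma, none by SAM, and 15.6% had an unadjusted p under 0.05. The exact sign-flip permutation test of the 4 values gave p = 0.125, 2-sided, the smallest that 4 arrays allow. As deposited, where 0% of features passed and 3.34% had an unadjusted p under 0.05, the forward and swapped values of probe 2 did not overlap and lay on opposite sides of 0, and the mean was 0.01 ± 0.34 (SD, n = 4; limma adjusted p = 0.997).

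Probe 1 had values of -0.36 and -0.23 on the forward arrays at 12 hrs, and 0.30 and -0.45 on swapped replicates 3 and 4 as deposited. Its swapped replicates therefore disagreed with each other in sign. The mean was -0.11 ± 0.38 (SD, n = 4; limma adjusted p = 0.680) in the turned reading and -0.19 ± 0.34 (limma adjusted p = 0.997) as deposited. On the 2 forward arrays alone the means were -0.29 ± 0.09 for probe 1 (SD, n = 2; limma adjusted p = 0.318) and -0.26 ± 0.02 for probe 2 (adjusted p = 0.382). Of 3938 features tested on these forward arrays, 1.3% passed in the lower direction (2.21% with arrays centred on their medians), and 19.5% were negative on both. Of 3 head markers tested there 2 were higher, the photoreceptor genes inaD (0.62, limma adjusted p = 0.00432) and Arr1 (0.56, adjusted p = 0.0141), and with arrays centred on their medians inaD alone of the 3 passed. Of 6 markers of fat body and muscle tested there, 1 was higher, the muscle gene Act79B (0.50, adjusted p = 0.0428), and none with arrays centred. Over all features 1.42% were called higher. As deposited, the swapped means at 12 hrs were -0.35 for inaD, -0.54 for Arr1 and -0.27 for Act79B. With all 4 arrays none of these genes passed in either reading. The part of these cell types in the CtBP values was not tested.

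On the 2nd day probe 2 fell on the forward arrays to -0.68 on replicate 1 and -0.61 on replicate 2, the 2 lowest CtBP values of the series, with ratios of PTZ over NF of 0.626 and 0.655. The forward mean was -0.64 ± 0.05 (SD, n = 2), and it passed the threshold (limma adjusted p = 2.35e-05). This fit pooled its spread over the features of the 2 arrays (SE 0.13 for CtBP). Of the 4964 features tested there, 33.3% passed in the lower direction like CtBP and 7.43% in the higher, and 63.7% were negative on both arrays. With each array centred on its median the shares were 15.1% lower and 15.2% higher, and CtBP had -0.47 and still passed (limma adjusted p = 0.00573). After the median of the nearest features on the slide, 25 on each side, had been subtracted, the mean was -0.37 and no longer passed (limma adjusted p = 0.0723). With 2 arrays the exact sign-flip permutation test cannot go below p = 0.5. The glial glutamine synthetase gene Gs2 had a forward mean of -0.45 there (limma adjusted p = 0.00388) and the synaptic gene nSyb one of -0.15 (adjusted p = 0.375). With arrays centred, Gs2 had -0.28 and did not pass (adjusted p = 0.0708). The photoreceptor gene Arr2 was higher (0.39, adjusted p = 0.0143), and the other 3 head markers tested did not pass, though with arrays centred Arr1 did (0.39, adjusted p = 0.0144). Of 8 genes listed as markers of fat body and muscle and tested on these arrays, 3 were lower, centred or not. These were the lipoprotein gene apolpp (-1.63) and the yolk protein genes Yp1 (-1.51) and Yp3 (-0.75). The yolk protein gene Yp2 (-0.05, centred 0.12) and the fat body gene Lsp2 (-0.22, centred -0.05) did not pass, nor did the muscle genes tested. All flies were males, and whether the yolk protein genes mark fat body in these heads was not tested. The part of cell composition in the CtBP values was not tested.

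The swapped arrays of the 2nd day did not repeat these values in either reading. Probe 2 had -0.30 on replicate 3 and 0.04 on replicate 4 as deposited, or 0.30 and -0.04 when turned. The mean of the 4 arrays was -0.26 ± 0.47 (SD, n = 4; limma adjusted p = 0.588) with the swapped arrays turned, and -0.39 ± 0.33 (adjusted p = 0.194, unadjusted p = 0.0163) as deposited. The turned mean was -0.12 without replicate 1, -0.14 without replicate 2 and -0.44 without replicate 3, and it did not pass in any of these. Of 5279 features, 0% passed in the turned reading and 0.0189% as deposited, while 9.32% and 20.9% had an unadjusted p under 0.05. A fit with dye orientation as a second coefficient left the means as they were and gave an adjusted p of 0.0339 in the turned reading, where 14.1% of the features passed in the lower direction, and of 0.00131 as deposited, where 23.5% did. Probe 1 had a value on only 2 arrays of the 2nd day, -0.30 on forward replicate 2 and -0.02 on swapped replicate 3 as deposited. That was under the minimum of 3 arrays, and with a minimum of 2 arrays its turned mean of -0.14 did not pass (limma adjusted p = 0.789).

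On the 7th day neither probe was measured on forward replicate 2, so that 1 forward array remained. There probe 1 had -0.35 and probe 2 -0.20. On swapped replicates 3 and 4 as deposited, probe 1 had 0.10 and 0.22, and probe 2 had 0.11 and -0.51. With the swapped arrays turned, all 3 values of probe 1 were negative, while those of probe 2 lay on both sides of 0. The mean of probe 1 was -0.22 ± 0.13 (SD, n = 3; limma adjusted p = 0.964) turned and -0.01 ± 0.30 (adjusted p = 0.993) as deposited. The mean of probe 2 was 0.06 ± 0.39 (SD, n = 3; limma adjusted p = 0.977) turned and -0.20 ± 0.31 (adjusted p = 0.814) as deposited. Of 4316 features, 0% passed in the turned reading, where 2.27% had an unadjusted p under 0.05, and 0.672% as deposited. The direction of probe 2 turned with the processing: with each array centred on its median the turned mean was -0.18, and without replicate 4 it was -0.16. The exact sign-flip permutation test of 3 values cannot go below p = 0.25.

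Between time points no change of CtBP passed the test. With the swapped arrays turned, probe 2 differed by 0.01 ± 0.23 (SE) between the 2nd day and 12 hrs (limma adjusted p = 0.989), by 0.32 ± 0.26 between the 7th day and the 2nd day (adjusted p = 0.541) and by 0.33 ± 0.26 between the 7th day and 12 hrs (adjusted p = 0.992). Probe 1 differed by -0.11 ± 0.25 (SE) between the 7th day and 12 hrs (adjusted p = 0.992). As deposited, the directions were turned for 3 of these 4 values, none of which passed by limma: probe 2 differed by -0.39 between the 2nd day and 12 hrs (adjusted p = 0.999) and by -0.21 between the 7th day and 12 hrs (adjusted p = 0.672), and probe 1 by 0.18 (adjusted p = 0.705). Between the 7th day and the 2nd day probe 2 kept its direction (0.19, adjusted p = 0.814). Of all features tested, 0%, 0.0403% and 0% passed in these 3 contrasts of times, and 4.92%, 9.46% and 2.69% had an unadjusted p under 0.05. On the forward arrays alone, both 2nd day values of probe 2 (-0.68 and -0.61) were below both 12 hrs values (-0.25 and -0.28), an order shared by 57.8% of the 3581 features with these 4 values.

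Set against the features of its own array, CtBP was below the array median on every forward array. On forward replicate 1 at 12 hrs, 4.57% of features were below probe 1 and 7.91% below probe 2, and on replicate 2 the shares were 18.7% and 14.3%. On the 2nd day, 5.27% of features were below probe 2 on forward replicate 1 and 8.36% on replicate 2. On replicate 2 of the 2nd day probe 1 stood near the middle of the array, with 37.1% of features below it. On the forward array of the 7th day, 19.6% of features were below probe 1 and 30.5% below probe 2. In units of the robust SD of the array (from the median absolute deviation), the forward values of probe 1 were -2.24 to -0.32 from the median and those of probe 2 were -1.75 to -0.52. Probe 1 on replicate 1 at 12 hrs was the only forward value under the 5th percentile of its array. The 2 forward arrays of the 2nd day had lower medians (-0.14 and -0.20) and a wider spread than those of 12 hrs.

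On the swapped arrays probe 2 was above the array median, as deposited, on 5 of 6 arrays and probe 1 on 3 of 5. The highest place of probe 2 was on replicate 4 at 12 hrs, where 97.5% of features were below it, and its lowest on replicate 3 of the 2nd day, where 10.1% were below it. Probe 1 was lowest where probe 2 was highest, with 4.07% of features below it on replicate 4 at 12 hrs. The deposited value of -0.51 of probe 2 on replicate 4 of the 7th day was above the median of that array, which was -0.64, and 63.1% of its features were below it.

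**Figure D2:**
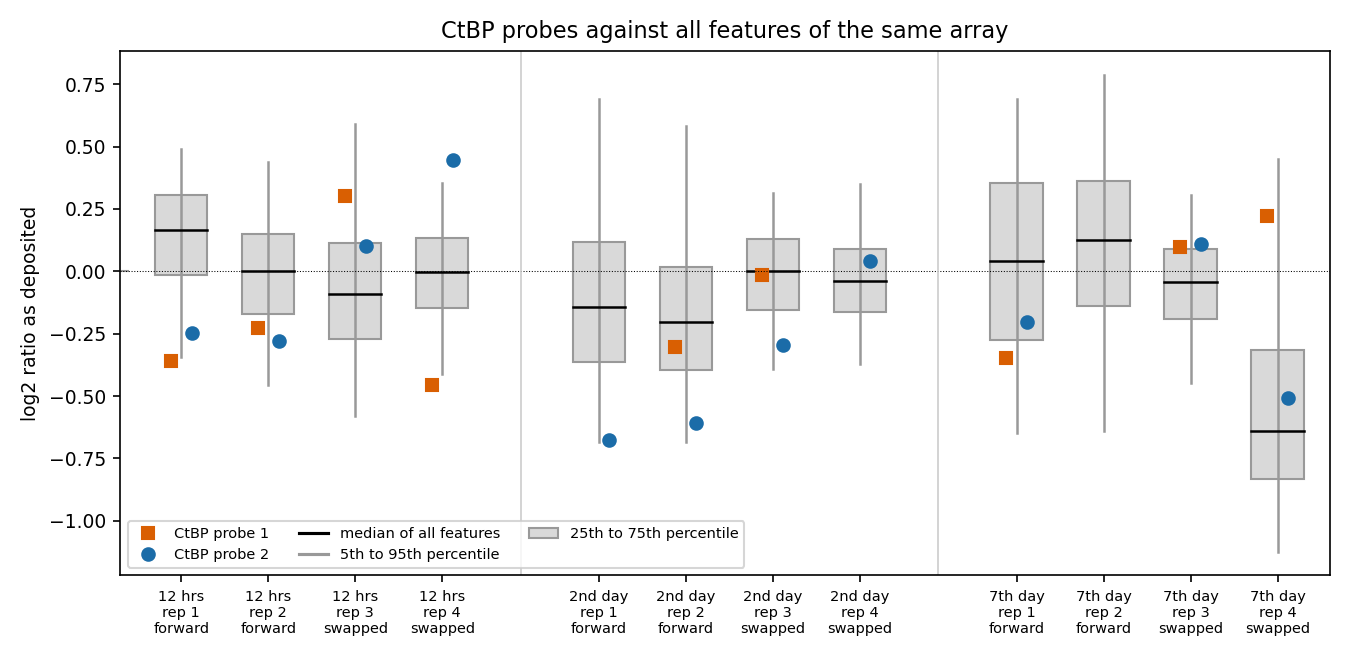
Log2 ratio as deposited of CtBP probe 1 (squares) and probe 2 (circles) on each array, over the distribution of all features of that array (black line, median; box, 25th to 75th percentile; thin line, 5th to 95th percentile). Both probes are below the median on every forward array, and on replicate 4 at 12 hrs they lie on opposite sides of the box.

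The 2 probes of CtBP were on the same side of 0 on the forward arrays and on opposite sides on 2 swapped ones. Both had a value on 9 arrays, 4 forward and 5 swapped, and had the same sign on all 4 forward and on 3 swapped arrays. On the forward arrays probe 2 minus probe 1 was between -0.31 and 0.14. The gap was smaller than in most pairs of probes of other genes on 3 of these 4 arrays, and on replicate 2 of the 2nd day it was larger than in 60.7% of 270 such pairs. On swapped replicate 4 at 12 hrs it was 0.90 as deposited, a larger gap than in 96.5% of 286 pairs of probes of other genes on that array. On swapped replicate 4 of the 7th day it was -0.73, larger than in 85.1% of 94 such pairs. Of the probe pairs of other genes, between 52.2% (replicate 2 at 12 hrs) and 86.2% (replicate 4 of the 7th day) had the same sign on the arrays where CtBP had both probes. Over the 9 arrays the difference averaged -0.04 ± 0.44 (SD, n = 9) as deposited, and the exact sign-flip permutation test gave p = 0.734, 2-sided. With the swapped arrays turned it averaged 0.02 ± 0.45 (exact p = 0.871).

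On replicate 4 at 12 hrs both spots of a probe had the same sign, and the probes had opposite signs. The spots of probe 1 had -0.37 and -0.54 there, and those of probe 2 had 0.42 and 0.47. On replicate 4 of the 7th day the spots of probe 1 had 0.28 and 0.17, and those of probe 2 had -0.55 and -0.46. The spots of a probe were furthest apart on swapped replicate 3 at 12 hrs, where those of probe 1 had 0.09 and 0.51, a gap larger than in 79.8% of the spot pairs of that array, and those of probe 2 had 0.23 and -0.02. They were closest on swapped replicate 3 of the 7th day, at 0.11 for both spots of probe 2.

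**Figure D3:**
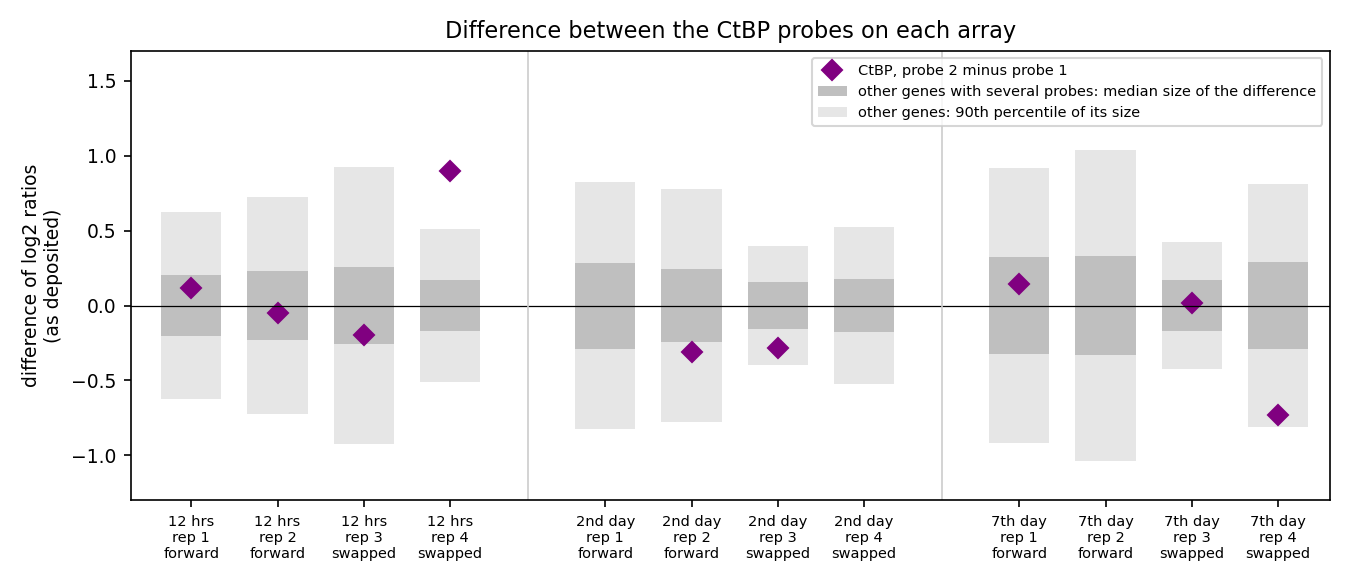
Difference of log2 ratios as deposited, probe 2 minus probe 1 of CtBP (diamonds), on each array with both probes, over the size of the same difference for other genes with several probes (dark band, up to the median; light band, up to the 90th percentile). Replicate 4 at 12 hrs, at 0.90, is outside the light band, and replicate 4 of the 7th day, at -0.73, is inside it near its edge.

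Features next to the probes on the slide were compared as a measure of place. The feature before probe 2, CG6409, had 2nd day forward values of -0.10 and -0.33, against -0.68 and -0.61 for probe 2. The feature after it, CG7888, had -0.57 and -0.91 on the same arrays. Probe 2 was therefore below both neighbours on replicate 1 and between them on replicate 2. Around probe 1, CG18585 had values on 3 arrays of the 7th day alone, and the unnamed feature after probe 1 had values on 3 arrays in all. On the chromosome, CG11656 to the left of CtBP in the Release 6 annotation had a value on 2 arrays, and CG46280 to its right was not matched to a feature.

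The features whose pattern over the arrays was most like that of probe 2 were found by the cosine of log2 ratios centred on each array median, over at least 10 shared arrays. The cosine has the same value in both readings. Among 2739 features compared, the median cosine was 0.09 and the 95th percentile 0.72. The 6 closest with a gene symbol were Nop17l (cosine 0.95 over 10 arrays), CASK (0.92 over 11 arrays), CG12054 (0.90 over 10), Flo1 (0.89 over 11), Scamp (0.88 over 11) and Afti (0.88 over 10). CASK encodes a membrane-associated guanylate kinase scaffold of synapses, Flo1 a flotillin of membrane microdomains and Scamp a secretory carrier membrane protein. Nop17l lay on the same side of the array median as probe 2 on 10 of 10 arrays. Like probe 2, Nop17l had a lower forward mean on the 2nd day (-0.59) than at 12 hrs (-0.35). Its swapped means as deposited were 0.22 at 12 hrs and 0.01 on the 2nd day. Nop17l was picked for its likeness on these same arrays, so that the shared pattern is no separate evidence. Of 3581 features, 57.8% had both 2nd day forward values below both 12 hrs ones. CASK had forward means of -0.24 at 12 hrs and -0.78 on the 2nd day. The 6 were picked as the closest named features, so that most other features must be less like probe 2. Probe 1 of CtBP had a cosine of 0.37 to probe 2 over 9 arrays, which is under the minimum of 10. Of the features compared, 72.8% had a lower cosine than that. Probe 1 lay on the same side of the median as probe 2 on 8 of the 9 arrays. The array with the opposite side was replicate 4 at 12 hrs. The points share arrays, dyes and normalization, and the cosines describe these 12 arrays.

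**Figure D4:**
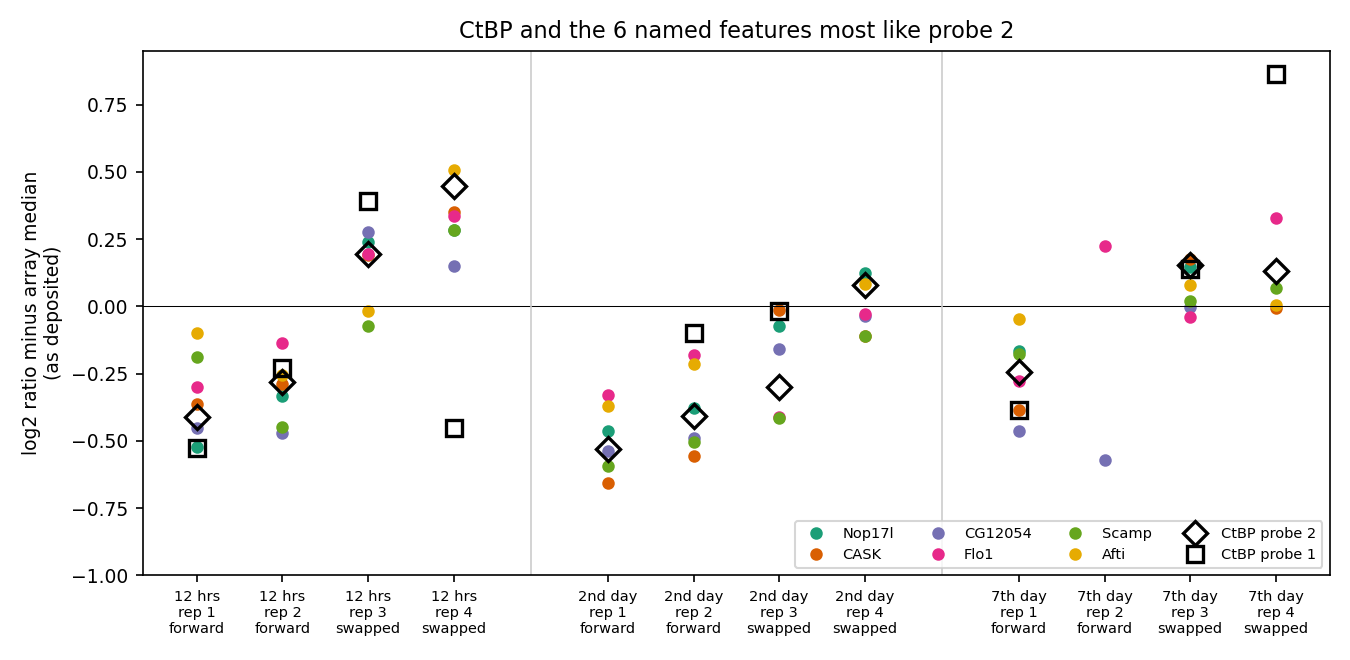
Log2 ratio as deposited minus the array median (vertical axis) on each array for CtBP probe 2 (open diamonds), CtBP probe 1 (open squares) and the 6 named features with the highest cosine to probe 2 (dots). Like probe 2, the features lie below the median on the forward arrays of the first 2 times, and probe 1 stands apart from them on replicate 4 at 12 hrs and on replicate 4 of the 7th day. Values on replicate 2 of the 7th day, where CtBP has none, did not enter the cosine.

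CtBP needs DNA-binding partners, and 6 of 10 listed DNA-binding repressors that recruit it were matched by symbol to a feature of the array. Among the 3 tested on 2nd day forward arrays 2 were lower, kni (-0.38, limma adjusted p = 0.0169) and its relative knrl (-0.52, adjusted p = 6.88e-04), which encode nuclear receptor-like repressors. The gap gene Kr, which encodes a zinc finger repressor, had 0.05 there (adjusted p = 0.788). The median of the 3 was -0.38, against -0.20 over all features tested. With arrays centred on their medians 1 of 3 passed, knrl (-0.35, adjusted p = 0.0222), and Kr had 0.22. Over all features on these arrays, 33.3% were called lower, and 15.1% with arrays centred. At 12 hrs the forward means, which did not pass, were 0.05 for kni, -0.29 for knrl and 0.25 for Kr. H, which encodes the Notch pathway repressor Hairless, had values on 3 arrays, all of the 7th day. Over all 3 times and both readings with all arrays, the list had 14 tests by limma, of which 0 passed and 2 had an unadjusted p under 0.05. The same members are counted once in each reading. Those 2 were kni and knrl on the 2nd day as deposited, where 20.9% of all features had an unadjusted p under 0.05.

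Of 22 other corepressors and chromatin proteins, 6 were matched to a feature and 2 could be tested on 2nd day forward arrays. Both were lower, the nuclear receptor corepressor gene Smr (-0.49, limma adjusted p = 0.00142) and the deacetylase gene Sirt1 (-0.33, adjusted p = 0.0345). At 12 hrs their forward means were 0.29 for Smr and 0.33 for Sirt1, on the other side of 0 from both CtBP probes, and neither passed. With arrays centred on their medians 1 of 2 passed on the 2nd day, Smr (-0.32, adjusted p = 0.0326), and Sirt1 had -0.16. Over all features there, 33.3% were called lower, and 15.1% with arrays centred. The corepressor gene gro and the chromatin remodeller gene brm had values on 4 and 5 arrays and were not tested on the forward arrays of the first 2 times. With all arrays of a time the list had 14 tests over both readings, of which 0 passed by limma and 1 had an unadjusted p under 0.05. That was Smr on the 2nd day as deposited, where 20.9% of all features had an unadjusted p under 0.05.

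Of 31 genes of the Wnt pathway, 9 were matched to a feature and 7 had a value. All 4 tested on 2nd day forward arrays were lower: nkd, an inhibitor of the pathway (-0.64, limma adjusted p = 2.88e-05), the kinase genes CkIalpha (-0.35, adjusted p = 0.0290) and dco (-0.46, adjusted p = 0.00320), and slmb, which encodes a ubiquitin ligase subunit (-0.35, adjusted p = 0.0285). Their median was -0.40, against -0.20 over all features tested, of which 33.3% were called lower (15.1% centred). With arrays centred on their medians 1 of 4 passed, nkd (-0.46, adjusted p = 0.00684). As deposited, the swapped mean of nkd on the 2nd day was 0.14 and that of CkIalpha -0.06. With all arrays of a time, 0 of 22 tests over both readings passed by limma and 3 had an unadjusted p under 0.05. These were CkIalpha at 12 hrs turned, nkd on the 2nd day turned and dco on the 2nd day as deposited. Over all features 15.6%, 9.32% and 20.9% had an unadjusted p under 0.05 in these fits.

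The study placed CtBP on a list of 23 genes at 12 hrs, of which 20 were matched to the array. It made this list by SAM at a false discovery rate well above the threshold used here. By SAM here, with the swapped arrays turned, the adjusted value was 0.215 for probe 2, which is under the study's rate. For probe 1 it was 0.513, which is above that rate. SAM was run here in the turned reading alone, and the reading behind the study's list is not known. As deposited, the 12 hrs mean of probe 2 was 0.0056 (limma adjusted p = 0.997). Not passing the stricter threshold here therefore does not show that CtBP missed the study's limit. The value of 0.215 does not show that CtBP met it either. The list was chosen on these arrays, so that its direction is no independent evidence. With all arrays of 12 hrs, 19 members were tested by limma in each reading, and none passed after adjustment. In the turned reading 1 of 19 had an unadjusted p under 0.05, CtBP by probe 2. As deposited 15 of 19 did, without CtBP. Over all features the shares were 15.6% turned and 3.34% as deposited. On the forward arrays at 12 hrs 10 of 18 tested members were lower, with a median of -0.50 against 0.08 over all features. CtBP, by probe 2, was not among those 10, and 14 of the 17 other tested members had a lower forward mean. The lysosomal transporter gene spin had -0.66 (limma adjusted p = 0.00197) and Gbs-76A, which encodes a glycogen-targeting subunit of protein phosphatase 1, had -0.54 (adjusted p = 0.0210). The lipoprotein gene apolpp (-0.13) and the exchanger gene Nckx30C (-0.18) had smaller forward means and did not pass.

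On the swapped arrays at 12 hrs as deposited, CtBP had a mean of 0.27 by probe 2 and of -0.08 by probe 1. The 19 other members had means between -0.79 and -0.03, so that probe 2 was outside their range and probe 1 inside it; this difference was not tested. Over all features, 58.1% of 6479 had a negative mean there. On 2nd day forward arrays 13 of 15 tested members, CtBP among them, were lower, and 6 of the 14 others had a lower mean than CtBP. With arrays centred on their medians 12 of 18 were lower at 12 hrs, again without CtBP, and 8 of 15 on the 2nd day, with CtBP. Over all features the shares called lower were 1.3% at 12 hrs and 33.3% on the 2nd day, or 2.21% and 15.1% with arrays centred.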

How the data were processed

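Heads of PTZ and NF flies were compared on 12 two-dye arrays. The authors deposited log2 ratios made in Acuity from GenePix scans by a ratio-based normalization, and kept spots that passed limits on brightness, saturated pixels, flags, uniformity and background. Their centring is that of the authors' normalization, and the direction of the swapped arrays stays unknown. All columns were mapped to samples. Both spots of each probe were averaged here, and features with values on at least 3 of 4 arrays (both arrays in fits of forward arrays alone) were tested with limma (version 3.58.1, in R 4.3.3), 2-sided, with Benjamini-Hochberg adjustment over all features and a threshold of 0.05. Contrasts of times used 1 fit of all 12 arrays. Same-numbered arrays of 12 hrs and the 2nd day deviated together in all 4 pairs (correlations of 0.123 to 0.213 across features, by a check of the data). They share a dye orientation, and the labels do not say what else a number shares. Release 6 held the gene ID of 7447 of the 7558 features with 1 symbol. Genes are named by rule: the CtBP probes and their neighbours, the 6 features most like probe 2, and up to 4 members of each list, those measured on most arrays, with ties by the larger forward mean of the 2nd day. Yp1, Yp3, Lsp2, Act79B and Arr2 were named after their values were seen. CtBP and the lists were chosen with earlier results of these data known. The number of arrays limits the precision. The methods call the replicates biological. The steps were tested on simulated data. Alternatives were the other reading, centring, scaling, neighbour subtraction, a dye coefficient, single spots, other filters, gene averages, SAM, an unmoderated test, the replicate number as a block and fits without each array. 2 alternatives, the deposited reading with a dye coefficient and with centring, were added after the data were seen.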

Additional observations from a re-analysis of the deposited data

Results flagged for a closer look

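Probe 1 of CtBP at 12 hrs had 1 array far from the others. With the swapped arrays turned, replicate 4 had a log2 ratio of 0.454, whereas replicates 1, 2 and 3 had -0.36, -0.23 and -0.30. The gap to the nearest of them was 0.837 of the whole range, above Dixon's critical value for 4 arrays, which chance passes in about 1 of 20 groups. The spots of the probe had -0.37 and -0.54 there as deposited, a gap larger than in 68.8% of the spot pairs of that array, and probe 2 of CtBP had -0.45 there when turned. As deposited, the gap share was 0.700 and did not pass the limit. Every CtBP probe and time with 4 values was checked in both readings, and none of the others passed. The mean of probe 1 was -0.30 ± 0.07 (SD, n = 3; limma adjusted p = 0.388) without that array, against -0.11 ± 0.38 with it.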

How the results depend on the processing

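Over 12 CtBP values and 175 alternatives, 151 kept their direction and side of the threshold, 21 turned their sign, 2 newly passed and 1 no longer passed. Probe 2 on the 2nd day passed only with dye orientation as a second coefficient, at -0.26 turned and -0.39 as deposited, and its forward mean no longer passed at -0.37 with the neighbour median subtracted. At 12 hrs, probe 2 was 0.0056 as deposited, with and without the dye coefficient, and probe 1 was 0.20 with the neighbour median subtracted. On the 7th day, probe 2 was -0.20 as deposited, -0.18 centred, -0.0072 with the neighbour median subtracted, -0.16 centred and scaled, -0.003 with the dye coefficient, -0.20 as deposited with that coefficient and -0.079 averaged over both probes. Probe 1 was 0.20 as deposited and centred. The difference of the 2nd day and 12 hrs for probe 2 was -0.39 as deposited, -0.085 with the neighbour median subtracted and -0.048 from the second spot alone. That of the 7th day and 12 hrs was 0.18 for probe 1 and -0.21 for probe 2 as deposited. The cause was not tested.

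Leaving out each array gave, at 12 hrs, -0.30 to -0.03 for probe 1 (highest without replicate 1, lowest without replicate 4) and -0.32 to -0.21 for probe 2. On the 2nd day probe 2 had -0.44 to -0.12. At the last time it gave -0.29 to -0.16 for probe 1 and -0.16 to 0.20 for probe 2, negative without replicate 4. Forward means were -0.36 to -0.23 for probe 1 and -0.28 to -0.25 for probe 2 at 12 hrs, and -0.68 to -0.61 on the 2nd day, where 1 array has no test. Differences between the 2nd day and 12 hrs were -0.17 to 0.15 for probe 2, negative without replicates 3 or 4 of the 2nd day or replicate 4 of 12 hrs. Those of the 7th day and 12 hrs were -0.20 to 0.0745 for probe 1 (positive without replicate 4 of 12 hrs) and 0.11 to 0.47 for probe 2. Those of the 7th and 2nd day were 0.10 to 0.51.

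Counts of features called were 0 at each time with the swapped arrays turned. Leaving out each array gave 0 to 18 at 12 hrs, 0 to 59 on the 2nd day and 0 to 28 at the last time. On the 2nd day the count was 1 as deposited, 976 with the dye coefficient and 1541 with it as deposited. On the 7th day it was 29 as deposited, 9 as deposited with the dye coefficient, 1 averaged per gene, 1 from the first spot and 3 from the second. On forward arrays, 107 features were called at 12 hrs, but 21 with the neighbour median subtracted and 58 from the second spot, and 2022 on the 2nd day, but 352 with the neighbour median subtracted. Correlations of same-numbered arrays with those of the 7th day ran from -0.04 to 0.23 and were not all over 0.1. Same-numbered arrays share a dye orientation, and what else they share is not known. Arrays with different numbers were not set beside them. With the replicate number as a block the differences between times were 0.01, 0.26 and 0.27 for probe 2 and -0.17 for probe 1. None passed, so that the block changed no call of CtBP. Over all features the count for the 7th day minus the 2nd day was 1 without the block and 0 with it.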
